A study of Mus musculus with 3 samples.

Results

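The Hoxc cluster on mouse chromosome 15 carries 8 genes from Hoxc12 to Hoxc4, and the Suz12 and H3K27me3 peaks of the interval that holds them were examined in small intestinal crypts. The members were taken by position: peaks sharing at least 1 bp with the 110 kb interval chr15:102762001-102872000 (mm9, counted from 1), which holds Hoxc12, Hoxc11, Hoxc10, Hoxc9, Hoxc8, Hoxc6, Hoxc5 and Hoxc4. These were 24 of 1477 Suz12 peaks and 75 of 25955 H3K27me3 peaks. The 100 kb beyond the Hoxc4 end and the 100 kb beyond the Hoxc12 end served as flanks.

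Chromatin immunoprecipitation followed by sequencing was done on formaldehyde-fixed crypts of C57BL/6 mice with the genotype Lgr5Gfp-CreERT2, an allele that places a fluorescent protein and a tamoxifen-inducible Cre recombinase under the control of the stem cell gene Lgr5. All 3 libraries, Suz12, H3K27me3 and an input without antibody, shared this strain and genotype, although the design text of the series speaks of wild type crypts. The sources used here do not give tamoxifen treatment, age, sex or the number of animals. Each antibody had 1 library and the input was not analysed here, so no value has a replicate error and no test was made.

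Hox genes encode homeodomain transcription factors that give body regions their identity along the head-to-tail axis, and their order on the chromosome follows the order in which they act along that axis. Polycomb repressive complex 2 keeps Hox genes silent in cells where they are not used. Its subunit Suz12 is needed for the complex to place trimethyl groups on lysine 27 of histone H3, and the resulting mark, H3K27me3, can extend beyond the sites where the complex is detected.

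In order along the chromosome, the gene table (RefSeq, GRCm38.p6) placed Hoxc12 first, next to Hoxc13, and Hoxc4 last. All 8 members were matched by symbol. Hoxc12, Hoxc11 and Hoxc10 belong to the posterior class of Hox genes, and Hoxc10 is known from lumbar motor neurons and the hindlimb region. Hoxc9 and Hoxc8 act in the thoracic region and in motor neuron identity of the spinal cord. Hoxc6, Hoxc5 and Hoxc4 are the more anterior members, and Hoxc6 is also a brachial motor neuron gene. Between Hoxc12 and Hoxc11 lies Hotair, a long noncoding RNA. Mir196a-2 lies between Hoxc10 and Hoxc9, and Mir615 starts between the starts of Hoxc5 and Hoxc4. Because the files follow mm9 and the table follows another build, peaks were not tied to single genes, promoters, exons or introns. They are described by their distance from the Hoxc12-side start of the interval.

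The promoter table held 1 member, Hoxc4, with 250 bases before and 50 bases after its listed start. It is shown because the end of the interval that holds Hoxc4 carried H3K27me3 without a listed Suz12 peak. Its position is chr15:103034145-103034444 on the plus strand of GRCm38.p6, which cannot be set beside mm9 positions. Capitals mark CG dinucleotides, the sequence feature for which Polycomb-bound promoters are known.

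Hoxc4: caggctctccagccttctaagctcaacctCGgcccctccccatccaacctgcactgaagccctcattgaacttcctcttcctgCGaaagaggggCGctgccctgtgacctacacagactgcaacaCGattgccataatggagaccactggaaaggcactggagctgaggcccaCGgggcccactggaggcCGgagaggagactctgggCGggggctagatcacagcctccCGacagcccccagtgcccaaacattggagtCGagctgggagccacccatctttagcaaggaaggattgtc

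This sequence held 9 CG dinucleotides, against a median of 7 over the 32851 promoters of the table, of which 45.8% held at least as many and 94.6% held at least 1. Its GC content was 60.3% (median 52.7%), and its CG count was 0.333 of that expected from its C and G content (median 0.384). The listed Hoxc4 start was thus above the median in GC content and near it in both CG measures. Which of the Hoxc4 transcripts is used in crypts was not tested.

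The mature microRNAs of the 2 microRNA genes that sit among the members are shown with their seeds (bases 2 to 8) in capitals, since those genes lie in the same interval. They are credited to RefSeq on GRCm38.p6, all on the plus strand, and the seed of miR-196a-5p is shared with Mir196a-1 and Mir196b, microRNA genes of other Hox clusters.

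mmu-miR-196a-5p: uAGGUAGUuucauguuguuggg
mmu-miR-196a-2-3p: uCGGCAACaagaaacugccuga
mmu-miR-615-5p: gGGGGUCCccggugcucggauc
mmu-miR-615-3p: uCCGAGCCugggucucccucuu

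H3K27me3 lay over most of the Hoxc interval. Its 75 peaks covered 77.9% of the 110 kb, whereas the 24 Suz12 peaks covered 11.5%. Neighbouring H3K27me3 peaks were separated by a median of 242.5 bp, 30 of the 74 gaps were under 200 bp, and 3 exceeded 1000 bp. The longest gap measured 1745 bp (102819209-102820953), so no stretch of 2 kb between Hoxc12 and Hoxc4 was without the mark. In bulk crypts, a mark on fewer cells and a weaker mark in every cell cannot be told apart.

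Among the other windows examined, none of this length reached that coverage. Over 23859 windows of 110 kb laid end to end along all chromosomes and not touching the interval, the highest coverage was 71.1%, on chromosome 6, and the 99th percentile was 11.3%. When a window was started at every H3K27me3 peak, the highest of 25850 was 75.9%, also on chromosome 6, and 0 reached the Hoxc value. The interval was laid to fit the gene cluster and the end-to-end windows were not, which favours the interval in the first comparison. Only 1.96% of end-to-end windows held any Suz12 peak. In Suz12 coverage the Hoxc interval was not the highest: 5 end-to-end windows, on chromosomes 2, 6, 11 and 19, had at least as much, up to 43.7%. So did 8 windows shifted by 50% of their length, on chromosomes 2, 5, 6, 14 and 19, and 250 of those started at H3K27me3 peaks, which overlap one another, on chromosomes 2, 5, 6, 11, 14 and 19.

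**Figure D1:**
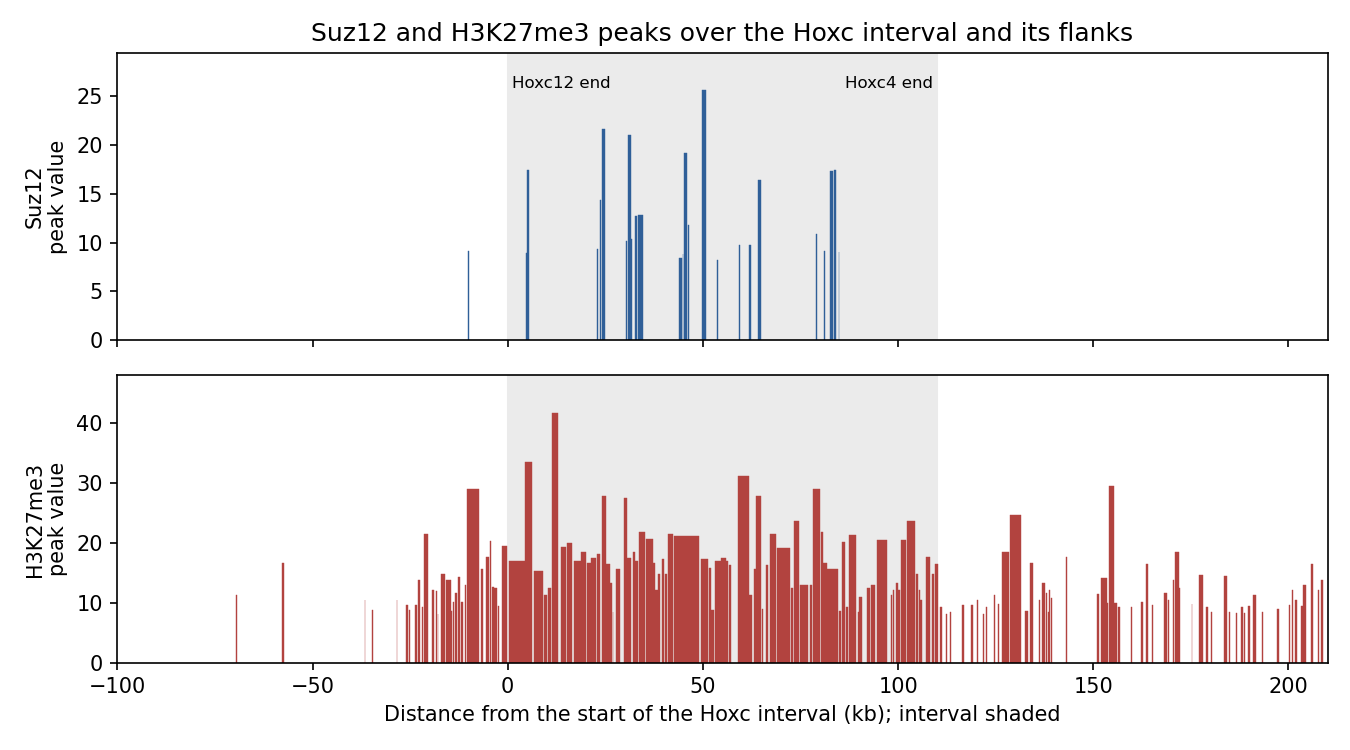
Peaks of the 2 lists along the Hoxc interval (shaded) and 100 kb to each side, with distance from the interval start in kb on the horizontal axis and the authors' peak value on the vertical axis. Suz12 peaks stop at 84.96 kb, while H3K27me3 peaks continue through the Hoxc4 end and into the flank.

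Each peak carries a value given by the authors' peak caller. No source used here gives its scale, both lists start at 8, and values were read only within a list. On that scale H3K27me3 peaks of the interval stood high in their list. Their median value was 16.6 (quartiles 12.9 and 20.04), against 11.2 (9.55 and 14.1) over all H3K27me3 peaks. Values of 20 or more, a level chosen for this description, were reached by 20 of the 75 peaks (26.7%, exact 95% binomial interval 17.1 to 38.1), beside 7.73% of the whole list. Such intervals reflect counting error alone, as if adjacent peaks were independent. Suz12 values of the interval were close to those of their list, with a median of 11.3 against 11.7. Values of 20 or more were reached by 3 of the 24 Suz12 peaks (12.5%, interval 2.66 to 32.4), beside 12.1% of all Suz12 peaks.

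H3K27me3 peaks of the interval were also wide. The median width was 799 bp (range 200 to 6593 bp) against 379 bp in the whole list, and 31 of 75 (41.3%) measured at least 1 kb against 12.4%. Wider peaks had higher values in this list, so the values were set side by side by width. Below 500 bp the median value was 13.3 for 15 peaks of the interval and 10.2 for the list. From 500 to 1000 bp it was 14.7 for the 29 peaks of the interval and 12.95 for the list, and from 1000 to 2000 bp it was 19.6 for 22 peaks and 17.6 for the list. At 2000 bp and above it was 20.5 for 9 peaks of the interval, lower than the 23.3 of the list. By width class the median value of the interval was therefore above that of the list in the 3 narrower classes and below it in the widest. The classes did not fully match width. From narrowest to widest, median widths were 414, 631, 1432 and 2849 bp in the interval and 288, 659, 1304 and 2524 bp in the list. Suz12 peaks were not wider than their list, with a median of 386 bp (range 208 to 1275 bp) against 421 bp.

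The 24 Suz12 peaks fell into 6 groups when gaps of up to 5000 bp were bridged. The group nearest Hoxc12 lay at 4.67 to 5.50 kb (102766675-102767500) and had 2 peaks with values of 8.90 and 17.45. Both sat inside a single H3K27me3 peak of value 33.4 (102766520-102768181), the second highest of the interval. Beyond it, 17.3 kb followed without a listed Suz12 peak, of which 79.9% lay in H3K27me3 peaks. The authors' running numbers of the Suz12 peaks skip 2 across this stretch.

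That stretch held the highest H3K27me3 value of the whole interval, 41.65, in a peak of 1566 bp at 102773372-102774937. In the whole list 99.99% of peaks had this value or a lower one. The nearest Suz12 peak was 5.87 kb away. The site is therefore the strongest H3K27me3 peak among the members and at the same time not a listed Suz12 site.

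The second Suz12 group lay at 22.8 to 25 kb (102784832-102786996), with 3 peaks of 9.35, 14.42 and 21.7. The third, at 30.2 to 34.7 kb, had 5 peaks: 10.13, 21.05, 10.39, 12.69 and 12.87, the last being the widest Suz12 peak of the interval at 1275 bp. H3K27me3 peaks covered 77.6% and 75.9% of these 2 groups, less than of any other group.

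The fourth group was the largest. It ran from 43.9 to 53.8 kb, with 6 peaks of 8.42, 8.80, 19.2, 11.8, 25.6 and 8.22. The peak of 25.6 (102811792-102812775, 984 bp) was the highest Suz12 value of the interval, and 94.5% of the Suz12 list had that value or a lower one. The first 4 peaks of this group lay inside the widest H3K27me3 peak of the interval, 6593 bp at 102804518-102811110 with a value of 21.1. Only 4 H3K27me3 peaks of the interval held more than 1 Suz12 peak, and the remaining 3 held 2 each.

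The fifth group, at 59.1 to 64.8 kb, had 3 peaks of 9.76, 9.76 and 16.4, and was followed by 14.2 kb without Suz12 that was 80.8% covered by H3K27me3. The sixth, at 78.95 to 84.96 kb, had 5 peaks of 10.9, 9.19, 17.3, 17.5 and 9.07. Each of the 6 groups had a peak of at least 16.4 and at least 1 of 10.13 or lower.

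No Suz12 peak was listed in the last 25041 bp of the interval, the end that holds Hoxc4. The last Suz12 peak ended at 102846959, and the list had none farther along chromosome 15, where 89 H3K27me3 peaks beyond the interval were still listed. H3K27me3 covered 67.5% of that stretch, against 80.9% of the interval up to the last Suz12 peak. The 21 H3K27me3 peaks starting there had a median value of 12.9 (range 8.39 to 23.6) and a median width of 552 bp. The 54 earlier peaks had medians of 16.9 and 899.5 bp. Because the split lies at the last Suz12 peak, all 17 peaks overlapping Suz12 are among these 54, and widths were not matched. Values before and after the split overlapped, and the highest of the Hoxc4 end, 23.6 at 102864255-102866363, lay 17.3 kb from the nearest Suz12 peak.

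Sites with a Suz12 value below 8 are not in the list, and neither list holds a peak narrower than 200 bp. The absence of a listed peak therefore does not show the absence of Suz12. The peaks carry running numbers, and across the interval 9 of 33 Suz12 numbers were missing (27.3%), against 14.9% in the whole list. The Suz12 numbers run in order of position, and 6 of the 9 missing ones fall between the groups: 2 in the 17.3 kb after the first group, which holds the H3K27me3 peak of 41.65, 3 in the 9.21 kb after the third and 1 in the 14.2 kb after the fifth. The other 3 fall within groups. For H3K27me3, 3 of 78 numbers were missing (3.85%), against 23.6%. No source used here says what those peaks were. Of the 24 listed Suz12 peaks, 9 (37.5%) had values under 10, against 30.8% of the list, and of the 75 H3K27me3 peaks 6 did (8%), against 33%.

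**Figure D2:**
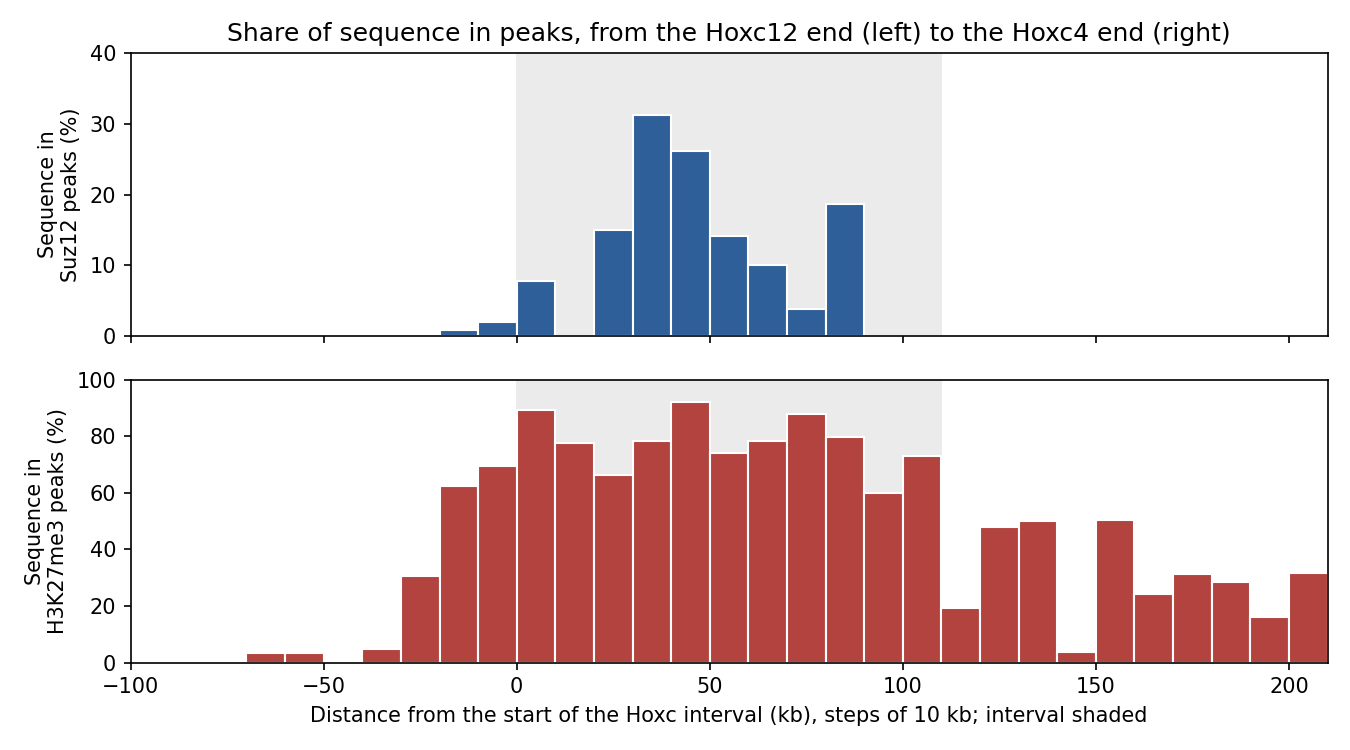
Percent of each 10 kb step lying in Suz12 peaks (upper panel, axis to 40%) and in H3K27me3 peaks (lower panel, axis to 100%), with the interval shaded. H3K27me3 stays between 59.9% and 92.0% from the Hoxc12 end to the Hoxc4 end, while Suz12 ranges from 0 to 31.3% and is highest from 30 to 50 kb.

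In steps of 10 kb, H3K27me3 and Suz12 varied differently along the interval. H3K27me3 coverage was lowest, 59.9%, from 90 to 100 kb and highest, 92.0%, from 40 to 50 kb. Suz12 coverage was 31.3% from 30 to 40 kb and 26.2% from 40 to 50 kb. It was 0 in 3 of the 11 steps, from 10 to 20 kb and from 90 to 110 kb, in which H3K27me3 covered 77.6%, 59.9% and 72.9%. A step with 3.76% Suz12, from 70 to 80 kb, had 88.0% H3K27me3, exceeded only by the steps from 0 to 10 kb and from 40 to 50 kb.

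Overlap with H3K27me3 was found for 22 of the 24 Suz12 peaks (91.7%, exact 95% binomial interval 73 to 98.97), beside 96.3% of the whole Suz12 list. All 24 had an H3K27me3 peak within 1000 bp, and 16 lay wholly inside H3K27me3. Whole-list shares are not given for these counts, so they do not set the interval apart from the list. The peaks without overlap were narrow: 244 bp with a value of 10.39 at 102793654-102793897, and 219 bp with a value of 9.07 at 102846741-102846959. By sequence, 92.2% of Suz12 bases of the interval lay in H3K27me3, against 90.03% in the whole list.

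Conversely, 17 of the 75 H3K27me3 peaks overlapped Suz12 (22.7%, interval 13.8 to 33.8), beside 4.71% of all H3K27me3 peaks. Wider peaks overlapped Suz12 more often, and peaks of the interval were wide. Below 500 bp, 1 of 15 overlapped, against 177 of 16764 in the list. From 500 to 1000 bp it was 7 of 29 against 289 of 5963, and from 1000 to 2000 bp 5 of 22 against 410 of 2499. At 2000 bp and above it was 4 of 9 against 346 of 729, so the share was not above that of the list. Of H3K27me3 sequence in the interval, 13.6% lay in Suz12 peaks, against 6.44% genome-wide. Of the 75 peaks, 29 had a Suz12 peak within 1000 bp, a count given without its whole-list share.

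H3K27me3 peaks with Suz12 had a higher median value and width than the others of the interval. Their median value was 18.5 (range 11.2 to 33.4) against 15.7 (8.39 to 41.65) for the 58 without, and their median width 1289 bp against 653 bp. The whole list differed in the same direction and by more, with median values of 20.5 against 11.1 and median widths of 1317 against 366 bp. From 500 to 1000 bp the median values were 17.5 for 7 peaks with Suz12 and 12.9 for 22 without. From 1000 to 2000 bp they were 21.9 for 5 and 19.3 for 17. The peaks with Suz12 were also the wider ones within these classes, with median widths of 830 against 611.5 bp and 1631 against 1288 bp. The ranges overlapped in both classes, and peaks of 1 library are not replicates, so the difference was not tested.

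Of the 10 H3K27me3 peaks with the highest values, 7 overlapped Suz12. These had values of 33.4, 31.2, 28.9, 27.9, 27.9, 27.5 and 21.9, at 4.52, 58.95, 78.1, 24.2, 63.7, 29.9 and 33.5 kb. Those without Suz12 had values of 41.65, 23.6 and 23.6, at 11.4, 73.2 and 102.3 kb, the second of them 4.28 kb from a Suz12 peak. Strong H3K27me3 peaks were thus found along nearly the full length of the gene order. At values of 20 or more, 8 of 20 peaks of the interval overlapped Suz12, beside 643 of 2007 in the whole list. Of the 10 widest, 4 overlapped Suz12, where 346 of 729 list peaks of at least 2000 bp did so. Of these 10, 3 were also among the highest. Those next to the widest, 4133 bp at the very start of the interval (102762328-102766460, value 16.9) and 3490 bp at 102830885-102834374 (value 19.1), held no Suz12 peak. The first of these ended 0.214 kb from the nearest Suz12 peak and the other lay 4.12 kb from it. The remaining widths ran from 1996 to 2927 bp with values of 12.9 to 31.2.

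**Figure D3:**
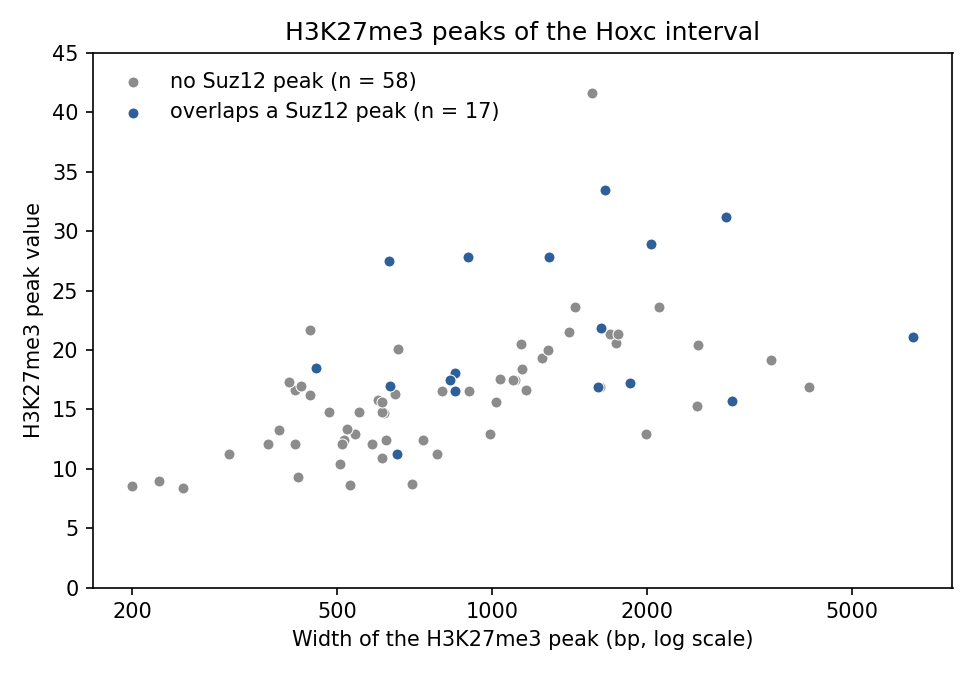
Width (bp, log scale) and authors' peak value of the 75 H3K27me3 peaks of the Hoxc interval, 17 overlapping a Suz12 peak and 58 not. Values rise with width, peaks with Suz12 lie mostly among the wider ones, and the highest point, 41.65, has no Suz12 peak.

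Neither end of the interval was an end of the mark. The last H3K27me3 peak before the interval had a value of 19.5 (102760634-102761873), and the first inside it 16.9. At the Hoxc4 end the last peak, 16.5, ran 222 bp past the border, and the first beyond it had 9.27. In the 100 kb beyond Hoxc4, 57 H3K27me3 peaks covered 30.3% of sequence, and no Suz12 peak was listed. Their median value was 10.4 (range 8.11 to 29.5) and their median width 398 bp, 6.26 and 401 bp below the medians of the interval. Values of 20 or more occurred at 2 of the 57 (3.51%, exact binomial interval 0.428 to 12.1).

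The flank beyond Hoxc4 was marked in patches. Coverage dropped to 19.5% in the first 10 kb past the border, was 47.8% and 50.1% in the next 20 kb and 3.72% after that, and returned to 50.3% from 40 to 50 kb past the border. The patches were led by a 2762 bp peak of 24.6 at 102890688-102893449 and a 1234 bp peak of 29.5 at 102916064-102917297. The latter value was matched or exceeded by only 3 of the 75 H3K27me3 peaks of the interval. From 50 to 100 kb past the border coverage ranged from 16.1% to 31.8%.

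On the other side, beyond Hoxc12, the mark fell off within 40 kb. In that direction, which holds the neighbouring Hoxc13, coverage was 69.4%, 62.5%, 30.6% and 4.85% in successive steps of 10 kb, and 0 to 3.50% farther out. Over the full 100 kb it was 17.4%, with 30 peaks and a median value of 12.0. A single Suz12 peak was listed there, with a value of 9.14 and 275 bp wide (102751919-102752193). The flank beyond Hoxc4 thus had more H3K27me3 at a distance and the one beyond Hoxc12 more H3K27me3 close to the border.

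H3K27me3 peaks separated by at most 5000 bp joined the whole interval into a single domain, which extended 28.5 kb beyond its Hoxc12 end and 33.4 kb beyond its Hoxc4 end. The interval made up 64.0% of it. The domain was set beside the 3 other domains with the most Suz12 peaks, on chromosomes 6, 2 and 11, which carry the Hoxa, Hoxd and Hoxb clusters. Their positions were not checked against an annotation, and the rank of the last was shared with another domain and decided by length. Because they were picked for their number of Suz12 peaks, the choice can favour them in every Suz12 comparison. By that number the Hoxc domain itself ranked 3 of 7663.

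As joined at 5000 bp, the Hoxc domain had the lowest Suz12 coverage and the lowest density of Suz12 peaks, of the 4, while its H3K27me3 coverage lay within the range of the others. H3K27me3 covered 66.3% of it, against 67.8% on chromosome 6, 68.0% on chromosome 2 and 54.5% on chromosome 11. Suz12 covered 7.54% of the Hoxc domain, against 31.0%, 26.2% and 11.4%. Per 10 kb there were 1.46 Suz12 peaks in it, against 2.81, 3.23 and 2.05. The Hoxc domain takes in sequence of both flanks, in which 1 of its 25 Suz12 peaks lies. The 110 kb interval alone had 11.5% Suz12 coverage and 2.18 peaks per 10 kb, near the values of the chromosome 11 domain. With gaps of up to 1000 or 10000 bp, chosen after seeing the data, Suz12 covered 5.29% and 5.09% of the longest domain at Hoxc, and at least 41.3% and 10.6% of those at the other 3 loci. At 1000 bp, however, the longest domain at Hoxc (102742678-102790848) was only a part of the locus. It held 6 Suz12 peaks, against 28, 16 and 14 on chromosomes 6, 2 and 11. The third to sixth Suz12 groups, with the steps of highest Suz12 coverage, lay outside it, so its 5.29% does not describe the whole interval. The median H3K27me3 value was 14.7 in the Hoxc domain, 13.97 on chromosome 6, 14.7 on chromosome 2 and 12.4 on chromosome 11. The median H3K27me3 widths were 614, 612, 773 and 555.5 bp, so in neither measure did the Hoxc domain lie outside the range of the others. The highest Suz12 value was 25.6, between the 19.9 of chromosome 11 and the 39.7 and 58.1 of chromosomes 6 and 2. The widest Suz12 peak measured 1275 bp in the Hoxc domain and 7055, 4037 and 2018 bp in the others.

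In the Hoxc domain 14.8% of H3K27me3 peaks overlapped Suz12 (18 of 122, exact 95% binomial interval 8.99 to 22.3). It was 40% on chromosome 6 (31.0 to 49.5), 44.2% on chromosome 2 (32.8 to 55.9) and 23.8% on chromosome 11 (14.9 to 34.6). The binomial interval of the Hoxc domain was apart from those of chromosomes 6 and 2 and overlapped that of chromosome 11. It treats adjacent peaks as independent, and the domain takes in sequence of both flanks. For the 110 kb interval alone the share was 22.7% (13.8 to 33.8), which overlapped the binomial intervals of all the other domains. The longest stretch of the Hoxc domain without Suz12 was 58.4 kb, from the last Suz12 peak through the Hoxc4 end to the domain's end, of which 49.6% lay in H3K27me3 peaks. Of this stretch 33.4 kb lay in the flank and 25.04 kb inside the interval. The longest in the others were 30.0, 21.0 and 38.5 kb, a range that includes the part inside the interval. With 1 library per antibody these differences have no test over samples, and the other domains were chosen by their Suz12 peaks.

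**Figure D4:**
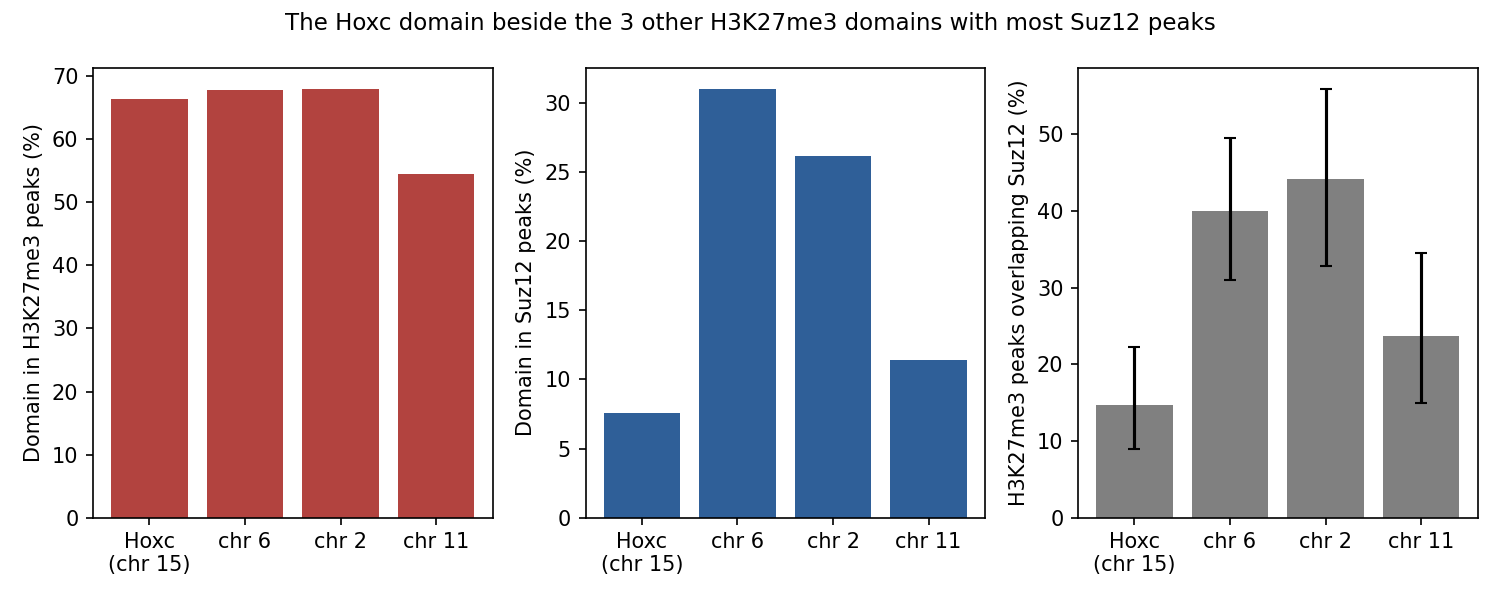
The Hoxc domain and the 3 other H3K27me3 domains with the most Suz12 peaks: percent of the domain in H3K27me3 peaks, percent in Suz12 peaks, and percent of H3K27me3 peaks overlapping Suz12, with exact 95% binomial intervals as error bars on the last. The Hoxc bar is close to the others for H3K27me3 (66.3%) and the lowest for Suz12 (7.54%) as joined at 5000 bp, whereas the interval alone had 11.5%.

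On chromosome 15 the interval held 24 of the 55 listed Suz12 peaks (43.6%) and 75 of 1412 H3K27me3 peaks (5.31%).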

How the data were processed

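Peak lists of 2 ChIP-seq libraries from mouse small intestinal crypts, Suz12 and H3K27me3, were analysed. Bowtie, MACS2 and the build mm9 are named in the submitters' processing notes, with no version, role or parameter. The authors deposited a score for each peak, called the peak value here. Its scale, and whether peaks were called against the input, are not given in the sources used here. The lists hold no read counts, so depth is unknown and numbers of peaks were not compared between antibodies as amounts.

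Overlap meant at least 1 bp shared. Coverage was the share of bases in peaks, clipped at region borders. A peak crossing a border counted for the interval. Domains were H3K27me3 peaks bridged over gaps of up to 5000 bp. Windows of 110 kb ran to the last peak of each chromosome. Where a share of peaks is given with an interval, it is an exact (Clopper-Pearson) 95% interval. Overlap was tested with artificial peaks placed on and between the listed H3K27me3 peaks of chromosome 15. Coverage and joining were checked against direct counts from the same listed peaks. Named were all Suz12 peaks of the interval, the 10 highest and 10 widest H3K27me3 peaks and those at its ends. Other flank, group and window features were chosen after their values were seen. Members and lists were chosen with earlier results of these data known. Gene order, microRNAs and the promoter came from RefSeq tables of GRCm38.p6. Positions were not converted between builds. Python 3.11.15, numpy 2.4.6, pandas 2.3.3, scipy 1.17.1 and matplotlib 3.10.9 were used.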

Additional observations from a re-analysis of the deposited data

How the results depend on the processing

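Alternatives were the upper 50% of a list by value, other definitions of overlap, peaks wholly inside the interval, a 50 kb flank or the flank beyond Hoxc12, joining gaps of 1000 and 10000 bp, and, added after seeing the data, other placements of the 110 kb windows and both gaps for the Suz12 coverage of the domain. A value counted as unchanged within 1.5 times of the first, or, for a share of peaks, inside its 95% interval. Of 23 alternatives, 19 left their result unchanged, 4 moved it and 0 reversed its direction. Only the differences of medians between interval and flank had a direction that could reverse, since counts, shares, coverages and lengths cannot. With the upper 50% by value, 12 of the 24 Suz12 peaks remained, and H3K27me3 coverage of the flank beyond Hoxc4 was 18.2%. Counting any Suz12 peak within 1000 bp raised the share of H3K27me3 peaks with Suz12 to 38.7%. When gaps of up to 1000 bp were bridged, the longest domain touching the interval measured 48171 bp, since 4 domains then touched the interval instead of 1. H3K27me3 coverage of the interval stayed at 74.7% with the upper 50%. No paired analysis was possible because each antibody has 1 library, and none could be left out. The minimum value of 8, the minimum width of 200 bp and the unknown depth limit what any missing peak can show.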
